A study of Mus musculus with 62 samples.

Results

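Cholesterol genes of the mouse brain were described by 7 transcripts, Hmgcs1, Idi1, Fdft1, Sqle, Cyp51, Dhcr7 and Insig1, which were taken by name. All 7 had a row in both deposited count tables, which together hold 12483 rows and share 11133 rows. The genes encode 6 enzymes of cholesterol synthesis and 1 regulator of the pathway. None of the 7 encodes a receptor for cholesterol uptake, and uptake was therefore read from a separate list of genes.

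Total RNA was sequenced from tissue punches of the suprachiasmatic nucleus (SCN, the central circadian clock, n = 19), the nucleus accumbens (NAc, a reward region of the ventral striatum, n = 26) and the prefrontal cortex (PFC, n = 17). The 62 libraries came from 26 mice of both sexes of the inbred C57BL/6J line, bred in house, and each library came from 1 animal. All mice were killed at zeitgeber time 6 (ZT6, 6 h after lights on), about 4 weeks after circadian rhythm disruption (CRD, repeated reversals of the light cycle, given to adolescents or, by the labels, to adults) or a control schedule. The labels name the region and the mouse of each library but not its schedule, age group or sex. No library was therefore assigned to those groups, and the comparisons are between regions and among libraries of a region.

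Cholesterol is made from acetyl-CoA. Hmgcs1 acts on the way to mevalonate, Idi1 interconverts the isoprenoid building blocks made from it, Fdft1 joins farnesyl units into squalene, Sqle oxidises squalene, Cyp51 demethylates lanosterol and Dhcr7 performs a last reduction to cholesterol. When sterols are low, the SREBP transcription factors are released from the endoplasmic reticulum and raise these genes together. Insig1, itself an SREBP target, holds SREBP and its escort Scap back when sterols are high, and because lipoproteins hardly cross the blood-brain barrier, the brain makes its own cholesterol, much of which goes into myelin.

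The genes lie on 5 autosomes of GRCm38 and are annotated as protein coding. Hmgcs1 (ENSMUSG00000093930) is at chr13:119690379-119708260 on the plus strand and Idi1 (ENSMUSG00000058258) at chr13:8885501-8892451 on the plus strand. Fdft1 (ENSMUSG00000021273) is at chr14:63145150-63179578 on the minus strand and Sqle (ENSMUSG00000022351) at chr15:59315077-59331192 on the plus strand. Cyp51 (ENSMUSG00000001467) is at chr5:4081145-4104746 on the minus strand, Insig1 (ENSMUSG00000045294) at chr5:28071363-28078662 on the plus strand and Dhcr7 (ENSMUSG00000058454) at chr7:143823145-143848410 on the plus strand. Fdft1 overlaps Ctsb, Cyp51 overlaps Akap9, Hmgcs1 overlaps the antisense gene Gm48342 and Idi1 overlaps Gm48574, each on the opposite strand. The sources do not state a strand setting for the counting, so reads from the shared stretches cannot be told apart.

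Promoter sequence is shown because SREBP acts at a sterol regulatory element beside factors that bind CCAAT and GC boxes, and these genes are grouped by that regulation. RefSeq windows on GRCm38.p6, running from 250 bases before to 50 bases after a start site, were found for Hmgcs1, Idi1, Cyp51, Insig1 and Dhcr7. The windows were searched on both strands for a sterol element core (TCACNCCAC), a CCAAT box (CCAAT) and a GC box (GGGCGG), and in the sequences below the capitals mark matches to any of them. The first 3 sequences are 150 bases that end before both the RefSeq and the annotated gene start, and the last 2 are 30-base stretches around a CCAAT match nearer to the RefSeq start.
Hmgcs1, chr13:119690201-119690350, plus strand: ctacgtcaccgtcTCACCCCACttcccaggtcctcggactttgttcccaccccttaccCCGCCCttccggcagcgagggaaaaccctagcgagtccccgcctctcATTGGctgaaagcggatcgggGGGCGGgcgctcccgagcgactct
Insig1, chr5:28071213-28071362, plus strand: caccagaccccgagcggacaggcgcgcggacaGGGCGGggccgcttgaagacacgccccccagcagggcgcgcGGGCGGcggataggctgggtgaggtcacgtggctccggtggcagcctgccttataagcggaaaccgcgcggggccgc
Cyp51, chr5:4104747-4104896, minus strand: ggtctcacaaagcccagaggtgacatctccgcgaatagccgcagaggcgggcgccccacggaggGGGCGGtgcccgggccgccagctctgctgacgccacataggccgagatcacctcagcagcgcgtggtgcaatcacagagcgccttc
Idi1, chr13:8885548-8885577, plus strand: ttgcctccagctgATTGGcgagcccgggca
Cyp51, chr5:4104710-4104739, minus strand: ccgctgtccgccaCCAATctggtcctgaga
The Hmgcs1 window held the only match to the sterol element core, TCACCCCAC, starting 137 bases upstream of the RefSeq start, with 4 CCAAT matches and 3 GC matches. Idi1 held 2 CCAAT matches, at 45 and 14 bases upstream, and 1 GC match. Cyp51 held 1 of each of these boxes, and Insig1 held 1 CCAAT match and 3 GC matches. Of the 3 Dhcr7 start windows, 1 held 2 CCAAT and 3 GC matches. The core was found in 1.24% of all 32851 windows, CCAAT in 37.4% and the GC box in 35.7%, so a CCAAT or GC match is common among promoters. A match describes letters and not a bound site, and the absence of one says nothing of the factor.

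Sequencing depth ranged from 16496666 to 60009482 counts a library, and was lowest in the SCN, whose median of 22574686 compares with 45179771 for NAc and 43361149 for PFC libraries. Ribosomal and mitochondrial RNA genes took 31.5% to 75.2% of the counts. Region markers mostly separated the regions, with overlap for the SCN. On the scale joining both tables, only 2 of the 7 SCN neuron markers, Vip and Syt10, were present in both. They summed to 15.7 to 211 CPM in SCN libraries, 8.51 to 30.3 CPM in NAc and 19.2 to 28.5 CPM in PFC libraries. Vip had a PFC median of 19.7 CPM and Syt10 a NAc median of 14.2 CPM, so the overlap rests on these 2 genes. The 5 NAc neuron markers (Drd1, Drd2, Ppp1r1b, Adora2a, Rgs9) summed to 401 to 976 CPM (counts scaled to the size of the library) in NAc libraries and to 12.2 to 43.6 CPM in PFC libraries, and the 5 markers of cortical excitatory neurons (Slc17a7, Tbr1, Fezf2, Neurod6, Cux2) to 9.04 to 421 CPM and 721 to 857 CPM. NAc libraries thus varied widely in cortical transcripts, with the highest sum in mouse J1199. In the SCN the 7 SCN neuron markers summed to 80.2 to 444 CPM, lowest in J1199, and J1199 and J1140 had the highest sums of the 3 NAc neuron markers measured there, 244 and 125 CPM against a median of 28.9 CPM.

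The levels that follow are CPM after 1 scaling over all 62 libraries. Hmgcs1, the enzyme that forms HMG-CoA, had SCN levels of 107 to 161 CPM (median 131), NAc levels of 89.7 to 151 CPM (median 111) and PFC levels of 177 to 219 CPM (median 202). All PFC libraries lay above all libraries of the other regions, while the SCN and NAc overlapped. Idi1, the isomerase, had SCN levels of 10.6 to 24.4 CPM (median 19.4), NAc levels of 7.01 to 17.2 CPM (median 11.01) and PFC levels of 11.96 to 20.5 CPM (median 15.3). Its ranges overlapped in each pair of regions.

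Fdft1, squalene synthase, had SCN levels of 53.0 to 75.3 CPM (median 61.5), NAc levels of 26.1 to 51.0 CPM (median 42.1) and PFC levels of 54.8 to 76.3 CPM (median 67.3). Sqle, squalene epoxidase, had SCN levels of 30.5 to 40.0 CPM (median 35.1), NAc levels of 13.8 to 25.3 CPM (median 18.7) and PFC levels of 26.7 to 37.3 CPM (median 31.5). For both squalene genes the NAc libraries were lowest and overlapped neither the SCN nor the PFC, which overlapped each other. Cyp51, the lanosterol demethylase, had SCN levels of 34.9 to 50.3 CPM (median 42.6), NAc levels of 18.4 to 33.9 CPM (median 24.6) and PFC levels of 31.0 to 40.7 CPM (median 34.2). Every SCN library was above every NAc library, and the PFC overlapped both.

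Dhcr7, the last enzyme of the Kandutsch-Russell branch, had the smallest ratio between its highest and lowest regional median. It had SCN levels of 9.28 to 19.8 CPM (median 12.6), NAc levels of 8.26 to 15.1 CPM (median 11.4) and PFC levels of 8.49 to 12.5 CPM (median 9.69), and all ranges overlapped. Insig1, the sterol-dependent brake, had SCN levels of 37.4 to 61.0 CPM (median 51.9), NAc levels of 19.2 to 36.5 CPM (median 27.4) and PFC levels of 27.9 to 41.8 CPM (median 33.1). The SCN libraries of Insig1 lay above all NAc libraries and overlapped the upper PFC libraries. The plot of levels by region shows each library.

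**Figure D1:**
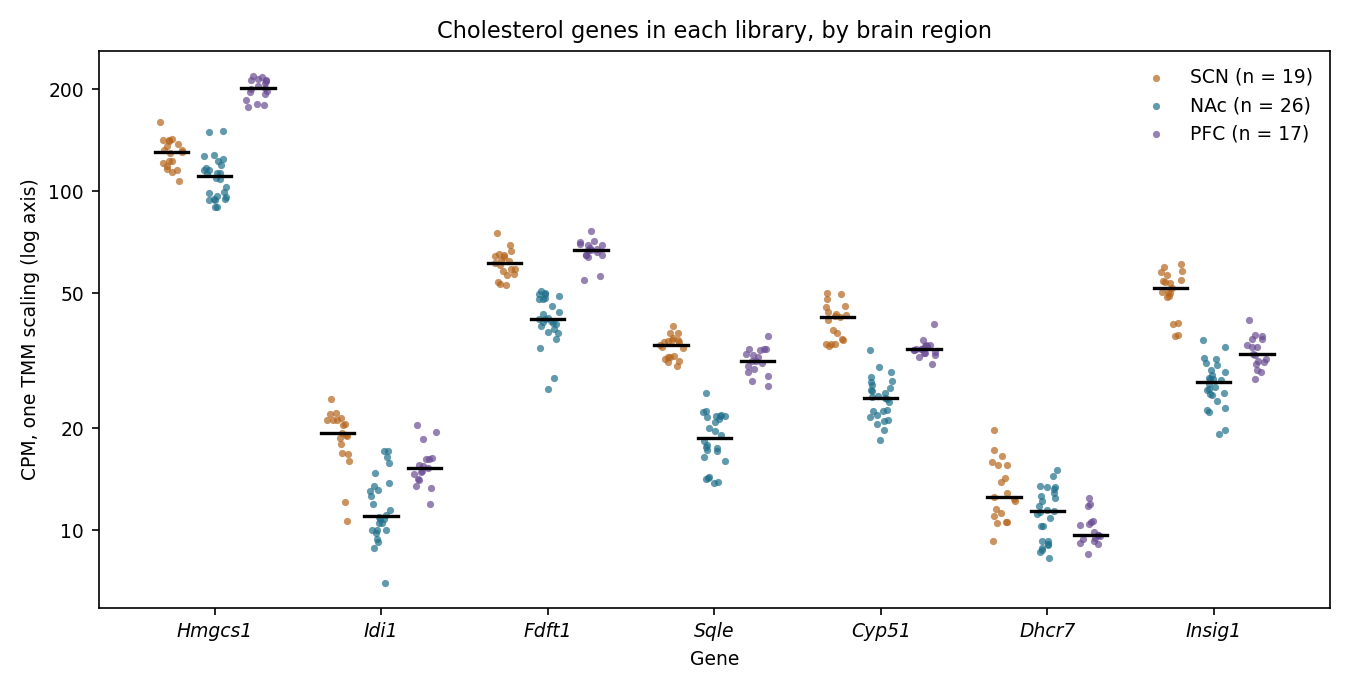
Level of each cholesterol gene (CPM after one TMM scaling, log axis) in the SCN (n = 19), NAc (n = 26) and PFC (n = 17). A point is a library and a black line is the median; the PFC points of Hmgcs1 sit between 177 and 219 CPM, above all others, and the NAc points are lowest for Fdft1 and Sqle.

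Per kilobase of annotated exon, Hmgcs1 had the highest median of the 7 genes in every region, 28.5 CPM (SCN), 24.2 CPM (NAc) and 44.0 CPM (PFC). Insig1 came next in the SCN, with 16.8 CPM per kilobase, ahead of Fdft1 with 14.6. In the NAc and PFC the order of these genes was turned, with 9.95 and 15.9 CPM per kilobase for Fdft1 and 8.85 and 10.7 for Insig1. Dhcr7 was lowest per kilobase in all 3 regions, with 2.16, 1.95 and 1.67. On this scale Cyp51, Sqle and Idi1 followed in that order in the SCN, at 9.66, 6.33 and 5.54 CPM per kilobase.

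The first comparison asked how the reward region differed from the cortex. In the NAc, 6 of the 7 genes were lower than in the PFC and none was higher, by edgeR's quasi-likelihood test with calls made at a fold change of 1.2 or more and an adjusted p below 0.05. Over all 11569 rows, 45.4% were called in either direction, with 23.7% higher in the NAc and 21.7% lower. The median log2 fold change of the 7 genes was -0.48, beside 0.02 for all rows. Because the punches are bulk tissue, fewer cells of a type and less RNA per cell cannot be told apart.

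Hmgcs1 differed most, by -0.86 ± 0.05 (log2 fold change ± SE, adjusted p = 1.26e-18 by edgeR), a 1.81-fold lower level. Sqle was lower by 1.69-fold (-0.75 ± 0.06, adjusted p = 2.51e-14) and Fdft1 by 1.57-fold (-0.65 ± 0.06, adjusted p = 1.72e-13). The NAc and PFC libraries of these 3 genes did not overlap, and no overlap with the NAc below was found for 4.52% of the 11133 shared rows. Cyp51 was lower by 1.39-fold (-0.48 ± 0.05, adjusted p = 5.56e-11). In all 17 mice with both regions, Hmgcs1, Sqle, Fdft1 and Cyp51 were lower in the NAc than in the PFC. Idi1 was lower by 1.31-fold (-0.39 ± 0.08, adjusted p = 0.000101), in 14 of 17 mice, and Insig1 by 1.24-fold (-0.31 ± 0.06, adjusted p = 3.26e-05), in 16 of 17 mice. Dhcr7 had a log2 fold change of 0.16 (95% confidence interval 0.02 to 0.30, adjusted p = 0.0403), under the fold limit, and was higher in the NAc in 10 of 17 mice.

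The remaining enzymes of the pathway were read from lists. Of the 4 other enzymes up to farnesyl diphosphate that are reported here, 3 were lower in the NAc and none was higher. They were the kinases Mvk (-0.51) and Pmvk (-0.43) and the decarboxylase Mvd (-0.33), while Acat2, which condenses acetyl-CoA, had -0.18 and was not called. Of 8 other enzymes after squalene reported here, 6 were lower and none was higher. They were Tm7sf2 (-0.70 ± 0.09) and Hsd17b7 (-0.64 ± 0.06), which act on sterol intermediates, and Nsdhl, Lss, Msmo1 and Sc5d, with log2 fold changes from -0.44 to -0.29. Ebp (-0.12) and Lbr (-0.03) were not called.

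The genes of uptake and transport divided. Of 9 measured, 3 were higher in the NAc and 4 lower. Scarb1, the HDL receptor, was higher by 1.78-fold (0.83 ± 0.07, adjusted p = 2.51e-14) and Vldlr, a receptor for apolipoprotein E and reelin, by 1.56-fold (0.64 ± 0.06, adjusted p = 7.69e-13). Npc1, which exports cholesterol from lysosomes, was also higher (0.37). Lrp8, the other reelin receptor, was lower by 1.52-fold (-0.60 ± 0.08, adjusted p = 3.01e-09), as were the lysosomal lipase Lipa (-0.57), the sterol carrier Stard4 (-0.55) and Mylip (-0.36), a ubiquitin ligase that acts on lipoprotein receptors. Npc2 (0.20) and Lrp1 (0.06) were not called.

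Among 11 regulators, 3 were higher and 2 lower in the NAc. Erlin1, an endoplasmic reticulum protein that acts in protein degradation, was higher by 2.28-fold (1.19 ± 0.09, adjusted p = 2.59e-16). Mbtps1, the first protease that cleaves SREBP, was higher by 1.73-fold (0.79 ± 0.07, adjusted p = 1.69e-13) while Mbtps2, the second, was lower (-0.36). Srebf1, better known for fatty acid genes, was higher (0.56), and Srebf2, the isoform that favours cholesterol genes, was lower (-0.30). Scap, the escort of SREBP, had 0.03 and was not called. Of 7 genes of efflux and turnover, 2 were higher and none lower, with Abcg1, a sterol exporter, 1.67-fold higher (0.74 ± 0.04, adjusted p = 2.21e-19). Of 10 fatty acid genes, 2 were higher and 2 lower, among them Acss2, which makes acetyl-CoA from acetate and was lower (-0.58 ± 0.08, adjusted p = 5.71e-09).

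**Figure D2:**
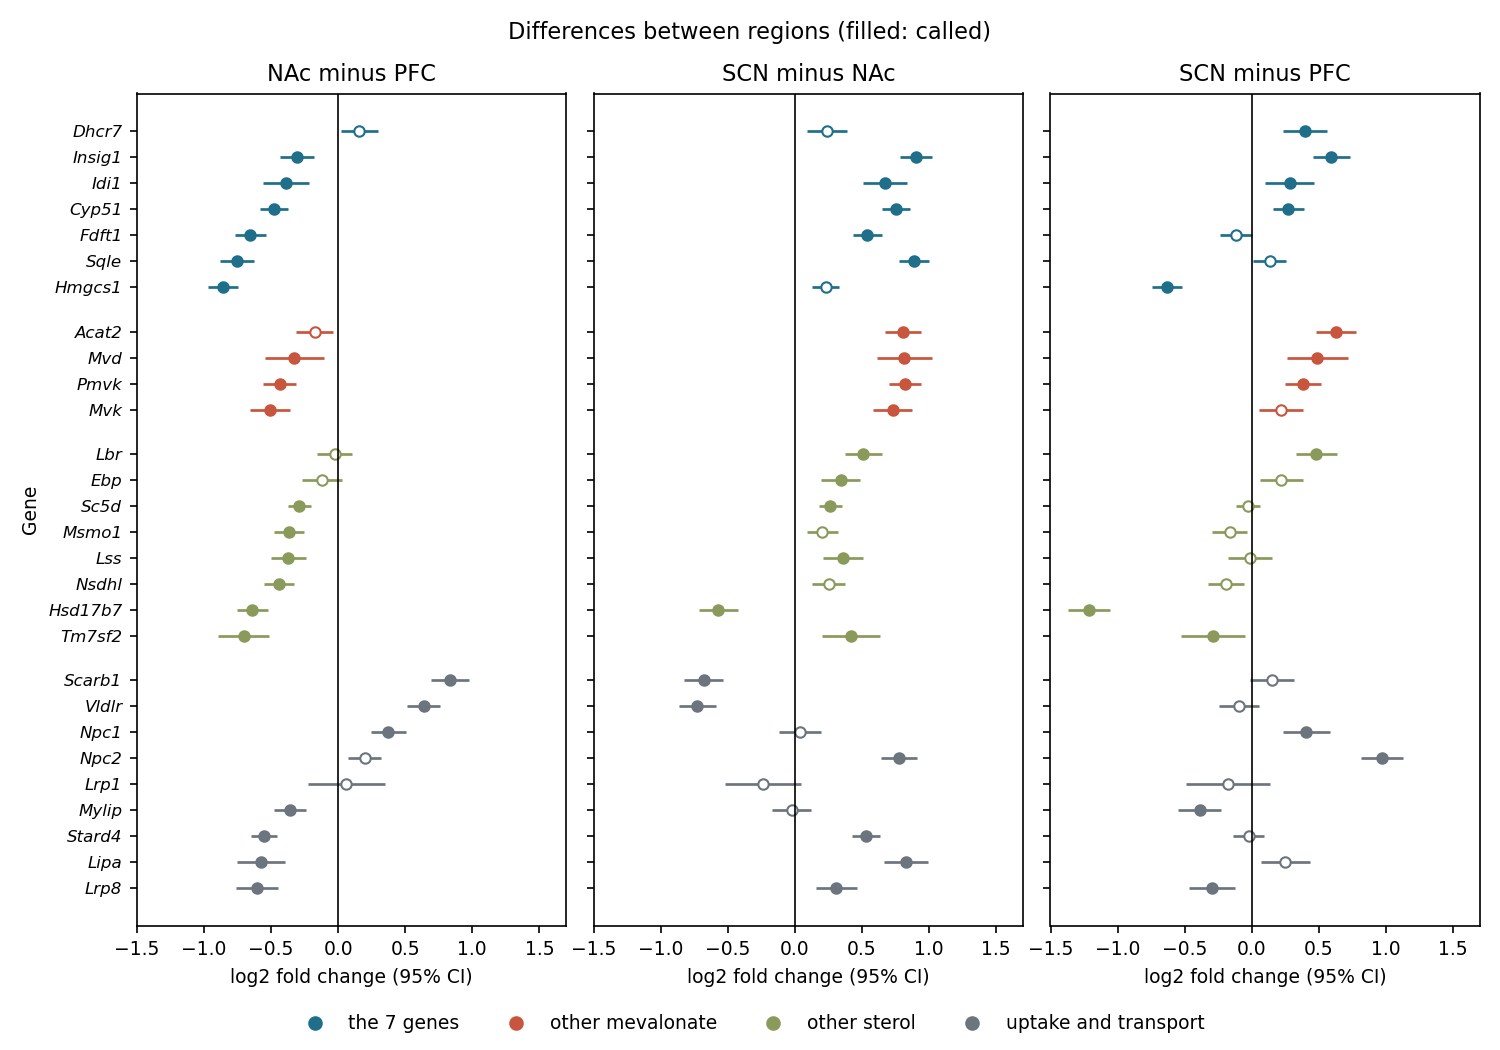
Log2 fold change with its 95% confidence interval for the 7 genes, the other mevalonate and sterol enzymes and the uptake and transport genes, in the NAc minus PFC, SCN minus NAc and SCN minus PFC comparisons. Filled points were called; most synthesis enzymes lie left of 0 in the first panel, with Hmgcs1 at -0.86, and right of 0 in the second.

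Markers of other cell types moved with this comparison. All 10 oligodendrocyte markers were called higher in the NAc, with summed levels of 732 to 1724 CPM there and 162 to 478 CPM in PFC libraries, and no overlap. Of 6 pan-neuronal markers, 4 were lower in the NAc, with sums of 801 to 2419 CPM and 1912 to 2757 CPM, and of 8 astrocyte markers 3 were lower, with sums of 1808 to 3560 CPM and 2133 to 3666 CPM. No marker was at 0, but the rows had been filtered on low CPM before deposit, so this tells nothing of absent cell types. With oligodendrocyte and astrocyte scores as covariates, 1 of the 7 genes was called, Fdft1 (-0.73, adjusted p = 0.00821), and 971 of all rows. Hmgcs1 had -0.52 (adjusted p = 0.0885) and Sqle -0.53 (adjusted p = 0.167) in that fit. Idi1 had -0.23 (adjusted p = 0.734), Cyp51 -0.11 (adjusted p = 0.792), Insig1 -0.15 (adjusted p = 0.781) and Dhcr7 -0.15 (adjusted p = 0.788). The oligodendrocyte markers separate the regions, so their level and the region cannot be told apart there. Without the 6 NAc libraries whose Slc17a7 level was over 25% of the PFC median, an alternative chosen after seeing the data, 6 of the 7 genes were again lower in the NAc. Except for Idi1 (10.1 against 10.8 CPM), the removed libraries had higher medians of these genes than those kept, as for Hmgcs1 (119 against 97.1 CPM). Their removal thus moves the NAc away from the PFC and is no check of the difference for those genes. No row was called for a difference of its NAc and PFC contrast between mice numbered to J1021 and from J1140 (edgeR interaction, 0 rows called and 2279 at an unadjusted p under 0.05), and the adjusted p of the 7 genes ran from 0.352 to 0.988.

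The SCN was deposited in a table of its own, so region and table cannot be told apart in its comparisons, and these share the NAc and PFC libraries with the comparison above. Of the 7 genes, 5 were higher in the SCN than in the NAc and none was lower, beside 33.1% of 11133 rows higher and 64.1% called in either direction. Insig1 was 1.87-fold higher (0.90 ± 0.06, adjusted p = 2.87e-21 by edgeR), Sqle 1.85-fold (0.89 ± 0.06, adjusted p = 1.08e-22) and Cyp51 1.68-fold (0.75 ± 0.05, adjusted p = 6.98e-21). These 3 genes and Fdft1 (0.54 ± 0.05) were higher in the SCN in all 19 mice with both regions, without overlap of libraries. The share of all rows without such overlap was not counted in the SCN comparisons. Idi1 was 1.59-fold higher (0.67 ± 0.08), in 16 of 19 mice. Dhcr7 (0.24 ± 0.07, adjusted p = 0.00268) and Hmgcs1 (0.23 ± 0.05, adjusted p = 6.05e-05) stayed under the fold limit. Dhcr7 passed it among the lower mouse numbers (to J1021), a possible batch (0.45), and when SCN J1199, J1140 and J1165 were left out (0.29), of which J1165 had the highest oligodendrocyte level. Hmgcs1 passed it among the lower mouse numbers (0.27).

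Against the PFC the 7 genes divided. In the SCN, 4 were higher and 1 was lower, beside 33.7% of rows higher, 31.0% lower and 64.7% in either direction. Insig1 was again the furthest above, 1.51-fold (0.59 ± 0.07, adjusted p = 7.82e-12), in 11 of 12 mice. Dhcr7 was 1.32-fold higher (0.40 ± 0.08, adjusted p = 1.75e-05), in 10 of 12 mice. Idi1 was higher by 1.22-fold (0.28 ± 0.09, adjusted p = 0.00480) and Cyp51 by 1.21-fold (0.27 ± 0.06, adjusted p = 2.48e-05), both near the fold limit. With the mouse as a block, these 2 fell under the limit, at 0.26 for Idi1 (adjusted p = 0.0217) and 0.21 for Cyp51 (adjusted p = 0.00178), and Idi1 was also not called in the upper range of mouse numbers (0.25, adjusted p = 0.0758). Hmgcs1 was lower in the SCN by 1.55-fold (-0.63 ± 0.06, adjusted p = 8.97e-16), in 12 of 12 mice. Its libraries did not overlap, and here too no share of all rows was counted. Sqle (0.13, 95% confidence interval 0.01 to 0.26) and Fdft1 (-0.12, 95% confidence interval -0.24 to 0.00) were not called.

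Acat2, Pmvk, Mvk and Mvd were higher in the SCN than in the NAc, by 0.73 to 0.82, and 3 of them, all but Mvk, were higher than in the PFC. Of the 8 sterol enzymes, 5 were higher and 1 lower in the SCN than in the NAc, and 1 was higher and 2 lower than in the PFC. Hsd17b7 was the one that was lower in both (-0.57 and -1.21). Of the 9 uptake and transport genes, 4 were higher and 2 lower in the SCN than in the NAc, and 2 were higher and 2 lower than in the PFC. Npc2, the soluble partner of Npc1, was higher in the SCN in both comparisons (0.78 and 0.97).

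Cell type markers differed in the SCN comparisons as well. Against the NAc, 7 of 8 astrocyte markers were higher in the SCN and 1, Slc1a2, was lower (-1.28). Of 6 neuron markers 5 were lower and 1, Stmn2, was higher (1.18). Of 6 microglia markers 5 were lower, and of 10 oligodendrocyte markers 2 were higher and 1 lower. Their summed ranges in the SCN were 1503 to 2710 CPM for astrocytes, 672 to 1354 CPM for neurons, 66.9 to 143 CPM for microglia and 421 to 2972 CPM for oligodendrocytes. Against the PFC all 10 oligodendrocyte markers and 7 of 8 astrocyte markers were higher, with 1 astrocyte marker lower, and 5 of 6 neuron, 5 of 6 microglia and 3 of 5 endothelial markers were lower. No marker was at 0, again among rows already filtered on low CPM. The part of these markers in the differences of the 7 genes was not tested for the SCN.

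Within a region, libraries differ among mice, and the next question was whether the 7 genes rose and fell together. The standard deviation of log2 CPM over libraries was 0.11 to 0.30 among SCN, 0.20 to 0.32 among NAc and 0.08 to 0.20 among PFC libraries, beside a median over genes of 0.26, 0.24 and 0.17. Idi1 had the largest spread of the 7 genes in each region. Every row was then fitted on the level of each of the 7 genes in turn, and an ordered pair was called at an adjusted p under 0.05 (edgeR, over all rows) with a positive slope.

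In the NAc, 21 of the 42 ordered pairs of the 7 genes were called, beside 14.1% of all 80920 pairs of a member with another row. Sqle with Dhcr7 was the tightest, with r = 0.82 over 26 libraries (slope of Dhcr7 on Sqle 0.83 ± 0.13, adjusted p = 2.06e-05 by edgeR). Hmgcs1, Fdft1, Sqle and Cyp51 were called with one another in both orders, with r from 0.56 to 0.68. Dhcr7 was called with Fdft1, Sqle and Cyp51 (r of 0.60, 0.82 and 0.60). Idi1 stood apart from these enzymes (r from -0.17 to 0.31) and was called only with Insig1 (r = 0.69), the regulator, but after adjustment for the oligodendrocyte, astrocyte and neuron scores its r with them was 0.25 to 0.62. Insig1 was also called on Hmgcs1 (r = 0.53) in 1 of the 2 orders. The median r of the 21 unordered pairs was 0.53, and 11 pairs had an r of at least 0.5, beside 14.6% of all gene pairs. These correlations describe libraries that share a table and a scaling.

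In the SCN, 5 of 42 pairs were called, beside 2.58% of all 84280 pairs. All 5 had Idi1 as one of the genes, with Insig1 in both orders (r = 0.67), Hmgcs1 (0.63), Cyp51 (0.63) and Dhcr7 (0.57). All 21 pairs had r above 0, with a median of 0.42. Low libraries were shared in part, since J1157 was lowest for Hmgcs1, Cyp51 and Insig1 and J1199 for Fdft1 and Sqle, while J1021 was highest for Hmgcs1, Dhcr7 and Insig1. Fdft1 followed the others least (r from 0.11 to 0.39), but after adjustment for the oligodendrocyte, astrocyte and neuron scores its r was 0.28 to 0.63.

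In the PFC, 0 of 42 pairs were called by edgeR, beside 1.06% of all 80815 pairs. At an unadjusted p under 0.05, 6 of the 42 had a positive slope, and the share of all pairs was not counted there. The median r was 0.10 over 17 libraries, beside 0.0007 over all gene pairs. Of the 21 pairs, 14 were above 0, beside 50.1% of all gene pairs. Idi1 with Dhcr7 had the highest r, 0.79, where the NAc had -0.17, and Sqle with Cyp51 the lowest, -0.56, where the NAc had 0.68. Their rank correlations in the PFC were 0.59 and -0.28. After adjustment for the oligodendrocyte, astrocyte and neuron scores, Idi1 with Dhcr7 had 0.69 in the PFC and 0.32 in the NAc. Sqle with Cyp51 then had -0.31 in the PFC and 0.40 in the NAc. With the log2 total count as a covariate, the highest r of the PFC pairs was 0.66. The difference of correlations between regions was not tested.

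**Figure D3:**
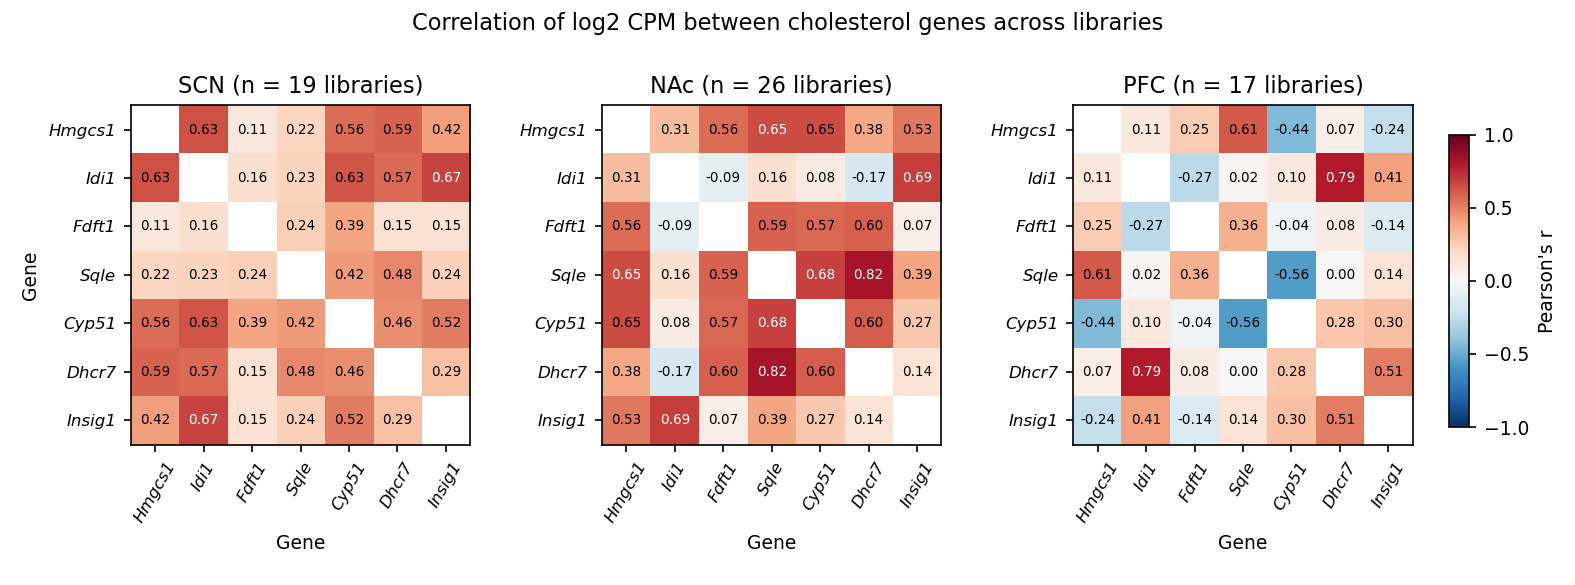
Pearson's r of log2 CPM across libraries for each pair of the 7 genes in the SCN (n = 19), NAc (n = 26) and PFC (n = 17), colored from -1 to 1. In the NAc panel, pairs among Hmgcs1, Fdft1, Sqle, Cyp51 and Dhcr7 have r from 0.39 to 0.82. Idi1 with Insig1 has 0.69, and Insig1 with Hmgcs1 has 0.53. The PFC panel mixes positive and negative values.

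Levels of cortical transcripts moved with the covariance in the NAc. Slc17a7, the vesicular glutamate transporter of cortical excitatory neurons, ranged from 4.64 to 340 CPM (median 64.6) in NAc libraries, against a PFC median of 609 CPM on the scale of that table. Across the 26 NAc libraries, r with Slc17a7 was 0.78 for Sqle, 0.78 for Fdft1, 0.74 for Hmgcs1, 0.71 for Dhcr7 and 0.71 for Cyp51, and 0.22 for Insig1 and -0.0008 for Idi1. Hmgcs1, Fdft1, Sqle, Cyp51 and Dhcr7, among which every pair but Hmgcs1 with Dhcr7 was called in the NAc, were those with the highest r with Slc17a7, and 4 of them were the genes furthest below the PFC. With log2 CPM of Slc17a7 as a covariate, chosen after seeing the data, 4 of 42 pairs were called and the median r was 0.17, beside 4.88% of all pairs in that fit. Without the 6 libraries highest in Slc17a7, 7 pairs were called, beside 8.46% of all pairs, and the median r was 0.41. With the oligodendrocyte, astrocyte and neuron scores as covariates, 9 pairs were called, beside 2.35% of all pairs. The r of the 21 unordered pairs then ran from 0.0069 for Fdft1 with Dhcr7 to 0.75 for Sqle with Dhcr7, with a median of 0.39. The median r of the 7 genes was 0.63 (-0.39 to 0.80) with the neuron score. It was 0.49 (-0.34 to 0.66) with the astrocyte score, and Idi1 and Insig1 were below 0 with both scores. The median r was -0.37 (-0.49 to 0.19) with the oligodendrocyte score and -0.47 (-0.80 to -0.29) with the microglia score. It was -0.38 (-0.62 to 0.56) with the share of ribosomal and mitochondrial RNA and -0.49 (-0.78 to -0.20) with Ppp1r1b, a marker of striatal neurons.

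**Figure D4:**
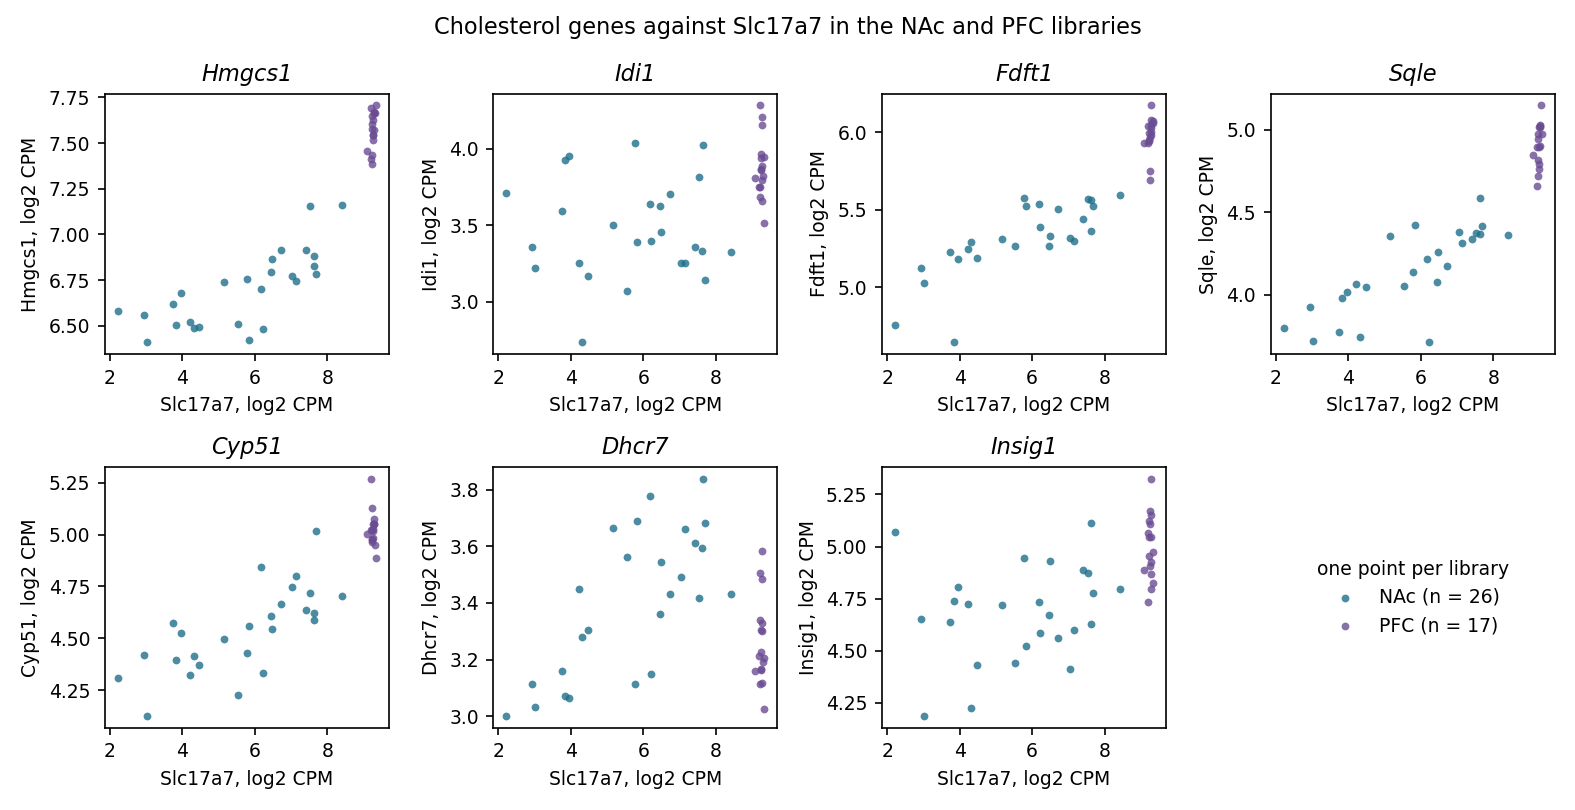
Log2 CPM of each cholesterol gene against log2 CPM of Slc17a7 in the NAc (n = 26) and PFC (n = 17), a point per library. In the NAc the points of Hmgcs1, Fdft1, Sqle, Cyp51 and Dhcr7 rise with Slc17a7 (r from 0.71 to 0.78), those of Idi1 do not (r = -0.0008), and the PFC points of Dhcr7 lie within the range of the NAc points.

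Depth moved with the SCN values, and in the PFC r with the log2 total count was -0.63 for Idi1 and -0.62 for Dhcr7. Across the 19 SCN libraries, r with the log2 total count was -0.71 for Idi1, -0.57 for Insig1 and -0.49 for Dhcr7. With the share of ribosomal and mitochondrial RNA, r was 0.79 for Idi1, but the rank correlation (Spearman's rho) was 0.38. J1157 and J1159 held the lowest shares (31.5% and 36.6%), the highest total counts and the lowest Idi1 levels (12.1 and 10.6 CPM). With the log2 total count as a covariate 1 pair was called, beside 0.851% of all pairs, and none when the 2 libraries farthest from the median were left out, beside 1.14%. By range of mouse numbers, the NAc gave 8 called pairs in the lower (n = 12) and 7 in the upper range (n = 14), beside 5.13% and 3.60% of all pairs. The SCN gave 0 in the lower (n = 7), where none of all 83860 pairs was called, and 4 in the upper range (n = 12), beside 2.47%. The median r of the 21 pairs was 0.51 and 0.52 in the 2 ranges of the NAc, 0.25 and 0.31 in those of the SCN, and -0.05 and 0.14 in those of the PFC.

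The genes outside the 7 with the most similar pattern were ranked by their median r with the 7 genes, among genes with a mean of at least 5 CPM. In the NAc they were Slitrk1 (0.78), Vxn, Nell1, Ppm1e, Cadps2, Elavl4, Nt5dc3, Astn2, Ipcef1 and Sphkap (0.74), of 9170 genes. In the SCN they were Gnai1 (0.61), Pcyox1l, Cyp2j9, Cfl2, Dctn4, Sat1, Psmd5, Gyg, 1700066M21Rik and Tuba1a (0.53), of 9992 genes. In the PFC they were Rit1 (0.49), Bsg, Hdhd2, Tmem35a, Lpcat1, 6030458C11Rik, Sntb2, Uqcrc1, Atp5g1 and Heatr3 (0.46), of 9156 genes. No other listed cholesterol gene was among these 10 in any region. The nearest of the lists were Lrp8 in the NAc (median r 0.65, rank 193) and Msmo1, the sterol C4 oxidase, in the SCN (0.46, rank 117) and in the PFC (0.39, rank 66). The other sterol enzymes had a median r of 0.26 among SCN (7 genes), 0.27 among NAc (6 genes) and 0.17 among PFC libraries (6 genes), beside -0.02, -0.03 and 0.00 over all genes.

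The last question was whether a mouse that was high in the NAc was high in the PFC. Over 17 mice, r between the regions ran from -0.04 for Cyp51 to 0.27 for Dhcr7, and none of the 7 genes was called (permutation test with 100000 resamples, two-sided, adjusted p from 0.788 to 0.989). Insig1 had r = 0.24, Hmgcs1 and Idi1 0.14, and Sqle and Fdft1 -0.04 and -0.03. Of all 11569 rows 0 were called, which is 0%. At an unadjusted p under 0.05, 322 had r above 0, of which none was one of the 7 genes. The median r over all rows was -0.07. The number of resamples limits how small p can be, so no row could be called alone and the 0% says little. For the 7 genes the unadjusted p of this permutation test ran from 0.297 to 0.915, far above that limit. With levels centred within each range of mouse numbers, 3 of the 11569 rows were called, none of them one of the 7 genes.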

How the data were processed

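Per the labels and the study's methods, libraries were made from 10 ng of RNA with a Smartseq HT kit, sequenced as paired ends, checked with FastQC 0.11.7, aligned to GRCm38 with HISAT2 and counted on genes with HTSeq in union mode. The authors deposited raw counts, already filtered on low CPM, in 1 table of SCN libraries (12047 rows) and 1 of NAc and PFC libraries (11569 rows). GENCODE M21 gave gene symbols, positions and exon lengths, and had no entry for 27 SCN rows and 24 rows of the other table. The kit's PCR reads carry no molecular identifiers, so counting precision may be overstated.

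The members and lists were chosen with earlier results of these data known. Comparisons of regions used edgeR 4.0.16 in R 4.3.3 (quasi-likelihood test, TMM, filterByExpr, no block), and Benjamini-Hochberg adjustment ran over all rows. The SCN entered a fit of 3 regions over the 11133 shared rows. Covariance fits used log2 CPM with a prior count of 2. Scores of cell types averaged the z-scores of a list. Named genes were the 7 genes, of the called list genes the 5 furthest up and the 5 furthest down in the NAc against the PFC, and the 10 genes nearest to the 7 in each region; Srebf1, Srebf2 and the remaining list genes with values were named to complete their lists. Mice numbered to J1021 (lower range) and from J1140 (upper range) were treated as possible batches. Libraries of 1 mouse are paired by animal; the correlation of the NAc and PFC deviations of a mouse ran from -0.45 to 0.27 over 17 mice. The alternatives were DESeq2 1.42.0 or its size factors alone, stricter and looser filters, the mouse as a block, each range, cell type scores, depth and left-out libraries. Correlations were computed in Python 3.11.15 (scipy 1.17.1, numpy 2.4.6, pandas 2.3.3). The scripts' tests were checked on simulated counts. Fdps, Nr1h3 and Cyp27a1 were not analysed here, and some other genes of the pathway are not reported here.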

Additional observations from a re-analysis of the deposited data

How the results depend on the processing

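Between the NAc and PFC, the number of the 7 genes called and the number of all rows called stayed within 1.5 times with DESeq2 or its size factors alone, with other filters, with the mouse as a block, in either range of mouse numbers, after removal of mitochondrial and ribosomal RNA genes and with each library left out in turn. With oligodendrocyte and astrocyte scores as covariates, 1 of the 7 genes and 971 of all rows were called, and Dhcr7 turned to -0.15 (adjusted p = 0.788). The mouse as a replicate block left 3 of the 7 genes called higher or lower between the SCN and PFC, 2 fewer than without it, and changed no other call of the 7 genes in these comparisons. For covariance, the SCN gave 1 called pair with the log2 total count as a covariate (0.851% of all pairs), 3 with the range of mouse numbers as a covariate (1.89%), 0 in the lower range (0 of all 83860 pairs) and 0 without the 2 farthest libraries (1.14%). The NAc gave 8 pairs in the lower range (5.13%), 7 in the upper range (3.60%), 9 with cell type scores (2.35%), 4 with Slc17a7 as a covariate (4.88%) and 7 without the libraries highest in it (8.46%). The PFC gave 1 with the range as a covariate (1.10%). For these shifts the cause was not tested. A single range holds fewer libraries and is also a possible batch, and these cannot be told apart. Depth was lowest in the SCN, where the levels of Idi1, Insig1 and Dhcr7 moved with it. Levels of Idi1 and Dhcr7 also moved with depth in the PFC (r = -0.63 and -0.62).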
